A study of Mus musculus with 20 samples.

Results

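Hearts of mice that carry an unnatural amino acid (UAA) incorporation system were compared with hearts of wild-type mice. The comparison uses 4 of the 20 RNA libraries of the series, which are the heart libraries labelled transgenic (2 mice) and wild-type (2 mice). Both groups have the strain label C57BL/6N. The transgenic line had been made by injecting linearized plasmids into fertilized eggs, and the labels give these mice no UAA. The promoters, the number of founder lines and the age of the animals are not stated in the sources used here. The 6 other hearts, used below for side-by-side values and for the estimate of the spread, came from trans/mdx mice given 50 mg NAEK, a UAA, repeatedly over 4 weeks (2 mice), trans/mdx mice without UAA (2 mice) and mdx mice (2 mice). Trans/mdx mice are the cross of the transgenic line with mdx, a line with a nonsense mutation in Dmd, the dystrophin gene. The strain label of mdx mice is C57BL/10, and that of both trans/mdx groups is C57BL/6N, so mdx hearts differ from the others in strain as well.

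A UAA incorporation system consists of an added aminoacyl-tRNA synthetase and a tRNA that the host's own synthetases do not charge. The synthetase loads this tRNA with the UAA, and the tRNA reads a stop codon, so that the ribosome inserts the UAA and reads on. Without the UAA the tRNA stays largely uncharged and release factors end translation at the stop codon. The transgenes themselves are not analysed here, because the table holds mouse genes. The comparison asks which heart transcripts differ in animals that carry the system but have not been given the UAA.

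Values are FPKM (fragments scaled to transcript length and to library depth), as deposited by the authors. Low values moved in steps that implied 4000000 and 3380000 fragments in the transgenic hearts, and 3830000 and 3390000 in the wild-type hearts. For a transcript of 1 kb, 1 fragment equals 0.250 and 0.296 FPKM in the transgenic hearts, and 0.261 and 0.295 FPKM in the wild-type hearts, so levels near 1 FPKM rest on few fragments. Transgenic replicate 2 had 5289 genes at 1 FPKM or more, while transgenic replicate 1 had 6668, against 6578 and 6085 in the wild-type hearts. It also had the largest share of its FPKM sum on the mitochondrial genome, 55.0%, against 48.0% in transgenic replicate 1 and 48.8% and 50.5% in the wild-type hearts. Its median-of-ratios size factor was 0.812, against 1.222 in transgenic replicate 1 and 1.153 and 1.003 in the wild-type hearts, so counts are also given below after scaling by these factors. Heart identity was checked with Myh6, the alpha myosin heavy chain of the adult mouse heart, at 1260 and 861 FPKM in the transgenic hearts and 1190 and 988 FPKM in the wild-type hearts. Myh4, the fast skeletal myosin, had 0.125 and 0.0492 FPKM in the transgenic hearts and was listed at 0 in both wild-type hearts.

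Scd1 was the only gene of 8269 tested that passed the adjusted threshold, and it was lower in the transgenic hearts. It encodes stearoyl-CoA desaturase 1, the enzyme that introduces a double bond into saturated fatty acids. Scd1 (chr19:44394455-44407879, mm10) had 0.514 and 0.182 FPKM in the transgenic hearts, against 11.5 and 8.28 FPKM in the wild-type hearts. These values correspond to about 9.93 and 2.97 fragments in the transgenic hearts and 212 and 136 fragments in the wild-type hearts. The groups were far apart, and the log2 change of FPKM + 1 was -3.01 ± 0.41 (SE, n = 2 each; limma, adjusted p = 0.0173). The call covers 0.0121% of the genes tested. It rests on each of the 4 libraries: leaving out transgenic replicate 1 or 2 gave an adjusted p of 0.0803 or 0.286, and leaving out wild-type replicate 1 or 2 gave 0.718 or 0.141. With a pseudocount of 0.1 FPKM in place of 1 the change was -4.56 and the adjusted p was 0.0502.

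**Figure D1:**
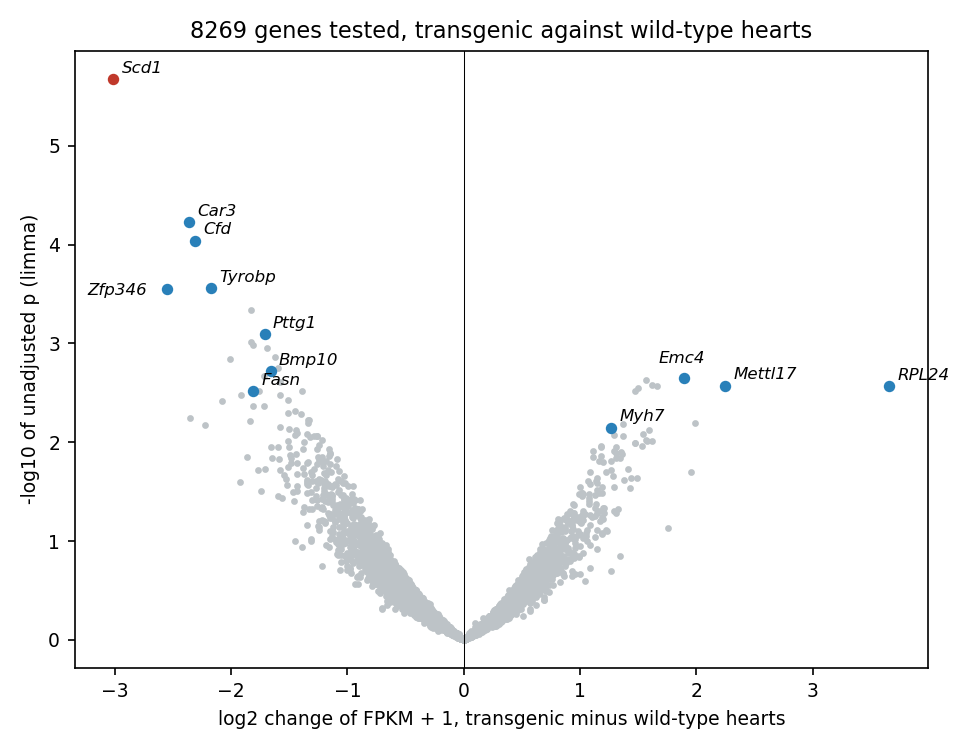
Each point is one of the 8269 genes tested, with the log2 change of FPKM + 1 (transgenic minus wild-type hearts) across and the -log10 of the unadjusted limma p upwards; the red point is the gene past an adjusted p of 0.05 and blue points are other genes named in the text. Scd1 stands alone at the upper left, and RPL24 has the largest positive change, 3.66, with an adjusted p of 0.938.

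The rest of the transcriptome gave few differences at this depth. At an unadjusted p under 0.05, 201 genes were lower (2.43%) and 78 were higher (0.943%) in the transgenic hearts, 3.37% of those tested in all, where 413 genes would be expected with no difference. The median log2 change of all genes tested was -0.08, and it was -0.29 without transgenic replicate 1 and 0.12 without transgenic replicate 2, so the balance of lower and higher genes depends on the library. The median SE was 0.46. A change of the size of 1 on the log2 scale was therefore usually not detectable with 2 mice per group. Both transgenic hearts lay below both wild-type hearts for 16.8% of the genes tested and above them for 10.9%. After scaling these shares were 18% and 16.6%, a more even split.

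The level in the other 6 hearts showed which of the compared groups stood apart. Among the 201 genes lower at an unadjusted p under 0.05, both wild-type hearts were above all 8 other hearts for 52 genes, and both transgenic hearts were below all 8 others for 28. Among the 78 higher genes, both transgenic hearts were above all 8 others for 24 genes and both wild-type hearts below all 8 others for 13. Over all genes tested, the transgenic hearts were above the 8 others for 81 genes and below them for 105, and the wild-type hearts were above for 142 and below for 70. The 201 and 78 genes were picked on the difference between these groups, so the counts describe them and are not tested. Scd1 belongs to both kinds: the transgenic values were the lowest and the wild-type values the highest of the 10 hearts. It had 4.00 and 5.78 FPKM in treated trans/mdx hearts, 0.655 and 0.854 FPKM in trans/mdx hearts without UAA, and 1.19 and 0.952 FPKM in mdx hearts.

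Lipid synthesis genes included the called gene and further members on the low side. Of 17 tested members of a list of lipid synthesis genes, 1 (Scd1) was called. Both transgenic hearts were below both wild-type hearts for 8 (47.1%, against 16.8% of all genes) and above for 1 (5.88%, against 10.9%). After scaling 5 of 16 (31.2%) lay below, against 18% of all genes. Scd4, Acaca and Dgat1 passed the expression filter only through the wild-type hearts, and Acaca is 1 of the 8. The count is therefore not independent of where these genes are high. The list's median log2 change was -0.34, which is 0.26 under that of all genes. Fasn, fatty acid synthase, had 1.24 and 0.15 FPKM in the transgenic hearts, against 4.38 and 4.88 FPKM in the wild-type hearts. The groups did not overlap, but the change of -1.81 ± 0.52 (SE, n = 2 each) did not pass (limma, adjusted p = 0.938). Acly, which makes cytosolic acetyl-CoA, had 1.98 and 1.58 FPKM in the transgenic hearts and 2.51 and 3.58 FPKM in the wild-type hearts. Dgat2, which completes triglyceride synthesis, had 8.22 and 8.04 FPKM in the transgenic hearts and 10.9 and 10.2 FPKM in the wild-type hearts. Mlxipl, the glucose-sensing transcription factor ChREBP, was the member above, with 2.89 and 1.58 FPKM in the transgenic hearts and 1.44 and 1.54 FPKM in the wild-type hearts. Srebf1, the sterol-regulated factor that drives fatty acid synthesis genes, overlapped at 0.646 and 0.0727 FPKM in the transgenic hearts and 1.26 and 0.526 FPKM in the wild-type hearts. Among the other desaturases Scd2 had 0.272 and 0.268 FPKM in the transgenic hearts and 0.851 and 0.534 FPKM in the wild-type hearts, under the level tested, and Scd4 overlapped.

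Genes of adipocytes had the lowest relative median of all lists with 8 or more tested members, and none was called. Of 16 listed genes 10 were tested. Both transgenic hearts were below both wild-type hearts for 5 of them (50%, against 16.8% of all genes) and above for 0. The scaled counts were 4 of 9 below (44.4%, against 18% of all genes) and 1 above (11.1%, against 16.6%). Adipoq and Ucp1 passed the expression filter only through the wild-type hearts, so the count is not independent of where these genes are high. Adipoq, the adipocyte hormone adiponectin, was listed at 0 in the transgenic hearts, where the wild-type hearts had 1.58 and 3.91 FPKM (limma, adjusted p = 0.908). Cfd, the secreted protease adipsin, was listed at 0 in the transgenic hearts, where the wild-type hearts had 3.73 and 4.17 FPKM (limma, adjusted p = 0.25). Car3, a carbonic anhydrase abundant in fat and slow muscle, had 0 and 0.639 FPKM in the transgenic hearts, against 4.72 and 6.58 FPKM in the wild-type hearts, a log2 change of -2.36 ± 0.43 (SE, n = 2 each; limma, adjusted p = 0.242). In each of these genes the wild-type hearts were the high ones.

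Further adipocyte genes had values on the same side or overlapped. Cidea, a lipid droplet protein of brown fat, had 1.71 and 0 FPKM in the transgenic hearts and 3.57 and 3.43 FPKM in the wild-type hearts. Ucp1, the uncoupling protein of brown fat, was listed at 0 in the transgenic hearts, where the wild-type hearts had 1.20 and 0.385 FPKM. The lipid droplet genes Plin1 and Cidec were too low to test: both were listed at 0 in the transgenic hearts, while the wild-type hearts had 0.596 and 0.335 FPKM of Plin1 and 0.418 and 0.554 FPKM of Cidec. Retn, Lep and Adrb3 were listed at 0 in all 4 hearts. Fabp4, which heart capillaries also express, overlapped at 124 and 77.3 FPKM in the transgenic hearts and 103 and 104 FPKM in the wild-type hearts. Lpl, the lipase that cardiomyocytes make themselves, had 245 and 169 FPKM in the transgenic hearts and 219 and 180 FPKM in the wild-type hearts. The list's summed level is set by these abundant genes and was 397.7 and 261.4 FPKM in the transgenic hearts and 362 and 322.7 FPKM in the wild-type hearts. In whole heart, fewer cells of a type and less RNA per cell cannot be told apart, and the part of fat tissue in these values was not tested.

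**Figure D2:**
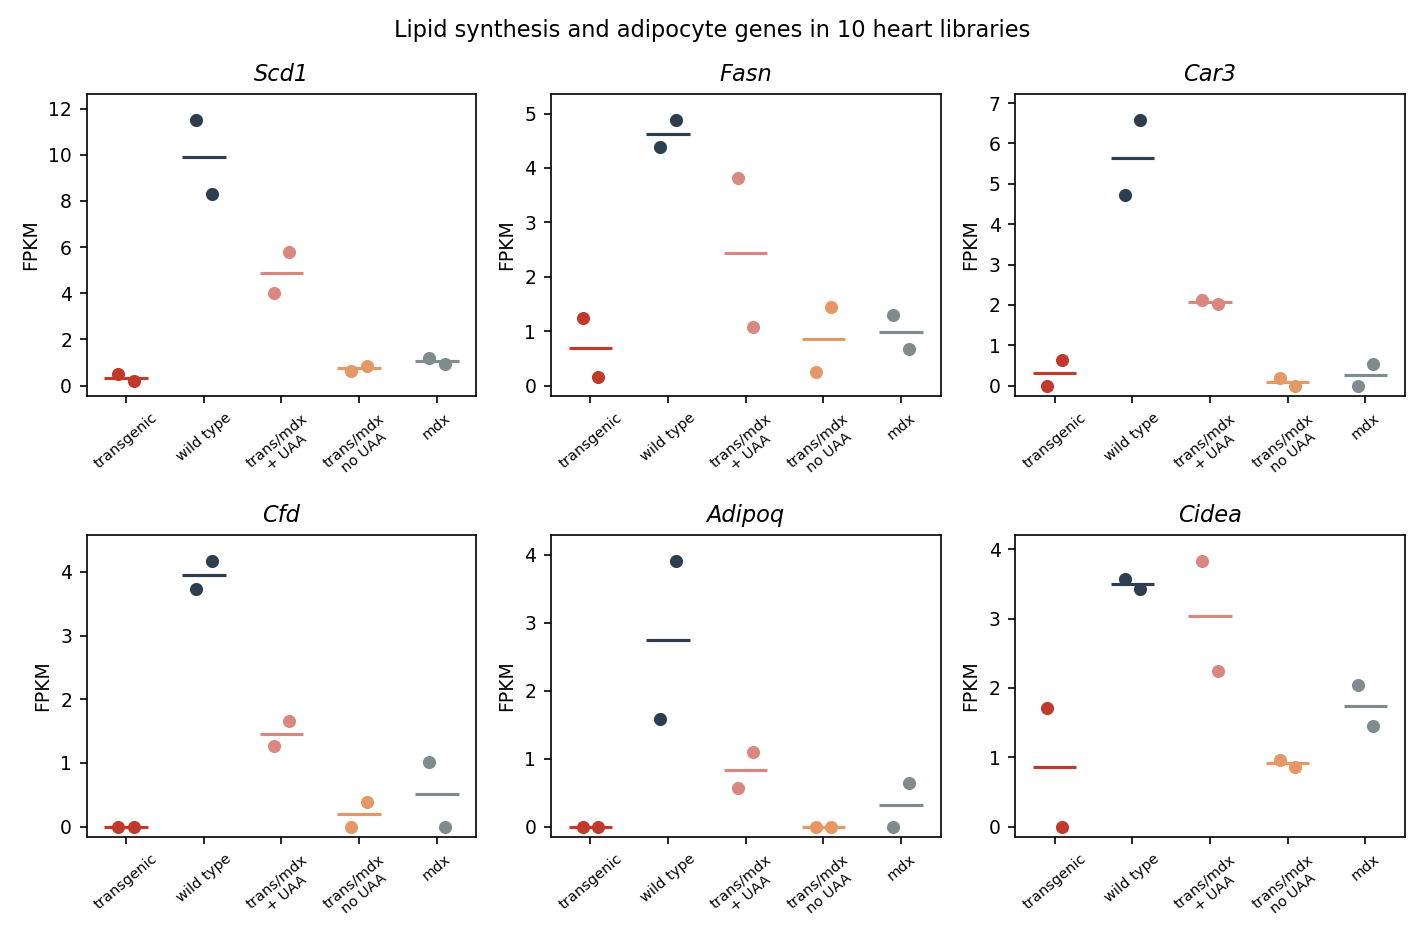
FPKM of 6 lipid synthesis and adipocyte genes (vertical axes, linear) in the 10 heart libraries by group; points are single hearts and lines are means of 2 hearts. The transgenic points lie near the bottom and the wild-type points at the top in the panels of Scd1 and Car3, with treated trans/mdx hearts in between.

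Promoters of 4 genes from the adipocyte, lipid synthesis and immediate early lists are shown, as 250 bases before the gene's start from RefSeq (GRCm38.p6, the mm10 assembly), because several members of these lists lay on the low side. For the first pair, capitals mark CCAAT or its complement ATTGG, the box bound by NF-Y. For the second pair, capitals mark TGACG or its complement CGTCA, the core of the cAMP response element. The Adipoq window is chr16:23146286-23146535 on the plus strand, and that of Fasn is chr11:120824548-120824797 on the minus strand. The Fos window is chr12:85473640-85473889 on the plus strand, and that of Atf3 is chr1:191183334-191183583 on the minus strand.
Adipoq: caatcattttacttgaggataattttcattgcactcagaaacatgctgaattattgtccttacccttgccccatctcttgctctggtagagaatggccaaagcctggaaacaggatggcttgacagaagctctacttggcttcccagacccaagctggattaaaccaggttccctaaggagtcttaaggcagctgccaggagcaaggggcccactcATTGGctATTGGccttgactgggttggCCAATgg
Fasn: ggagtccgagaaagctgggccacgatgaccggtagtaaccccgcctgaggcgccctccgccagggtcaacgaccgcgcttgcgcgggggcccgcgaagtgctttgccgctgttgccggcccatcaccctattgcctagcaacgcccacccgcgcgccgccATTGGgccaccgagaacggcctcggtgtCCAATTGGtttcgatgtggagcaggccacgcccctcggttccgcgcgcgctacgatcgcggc
Fos: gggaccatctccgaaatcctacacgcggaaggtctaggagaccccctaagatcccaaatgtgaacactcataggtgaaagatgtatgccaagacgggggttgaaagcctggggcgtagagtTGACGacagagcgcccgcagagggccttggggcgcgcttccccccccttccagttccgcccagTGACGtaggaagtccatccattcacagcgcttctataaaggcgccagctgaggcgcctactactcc
Atf3: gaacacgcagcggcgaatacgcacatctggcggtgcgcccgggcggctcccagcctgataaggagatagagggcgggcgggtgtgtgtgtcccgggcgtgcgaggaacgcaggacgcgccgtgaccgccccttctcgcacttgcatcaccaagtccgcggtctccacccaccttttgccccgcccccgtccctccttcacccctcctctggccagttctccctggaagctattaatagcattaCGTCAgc
CCAAT on either strand was found in 3 of 6 promoters matched for tested adipocyte genes and in 10 of 19 promoters matched for 14 of 17 lipid synthesis genes, against 33.8% of all 32851 promoters. It was also found in other lists, in 8 of 18 promoters of immediate early genes (44.4%) and 9 of 20 of clock genes (45%). In Fasn the matches at 62 and 59 bases before the start overlap. TGACG was found in 10 of the 18 promoters matched for the 21 tested immediate early genes, against 17.8% of all promoters and 6 of 20 promoters of clock genes (30%). The full element TGACGTCA was found in 2 of those 18, against 1.55% of all promoters. Such a match describes the letters and is not evidence of binding.

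Immediate early genes, whose transcription starts within minutes of a stimulus without new protein synthesis, had the largest share of members on the low side before scaling. Of 21 tested, none was called, and 1 passed the expression filter only through the wild-type hearts. The counts are therefore not independent of where that gene is high. Both transgenic hearts were below both wild-type hearts for 12 (57.1%, against 16.8% of all genes) and above for 1 (Nr4a3, 4.76%, against 10.9%). After scaling 9 of 21 (42.9%) lay below, against 18% of all genes, a share then under that of atrial (46.2%), fibroblast (45%), adipocyte (44.4%) and extracellular matrix genes (44%). The list's median was 0.38 under that of all genes on the log2 scale. Egr1, a zinc finger factor, had 2.77 and 1.79 FPKM in the transgenic hearts, against 9.10 and 6.81 FPKM in the wild-type hearts, a change of -1.45 ± 0.44 (SE, n = 2 each; limma, adjusted p = 1). Jun, an AP-1 subunit, had 3.18 and 4.13 FPKM in the transgenic hearts, against 9.12 and 6.92 FPKM in the wild-type hearts, and its change was -0.95. Fos, its dimer partner, had 1.89 and 0.146 FPKM in the transgenic hearts and 2.33 and 2.34 FPKM in the wild-type hearts. Atf3, a stress-induced repressor, had 0.133 and 0.823 FPKM in the transgenic hearts and 0.970 and 4.48 FPKM in the wild-type hearts. Nr4a1, a nuclear receptor, overlapped at 1.15 and 0.615 FPKM in the transgenic hearts and 1.42 and 0.491 FPKM in the wild-type hearts. The list summed to 46.4 and 36.3 FPKM in the transgenic hearts and 75.6 and 66.1 FPKM in the wild-type hearts, within the 24.9 to 82.6 FPKM of the 6 other hearts.

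**Figure D3:**
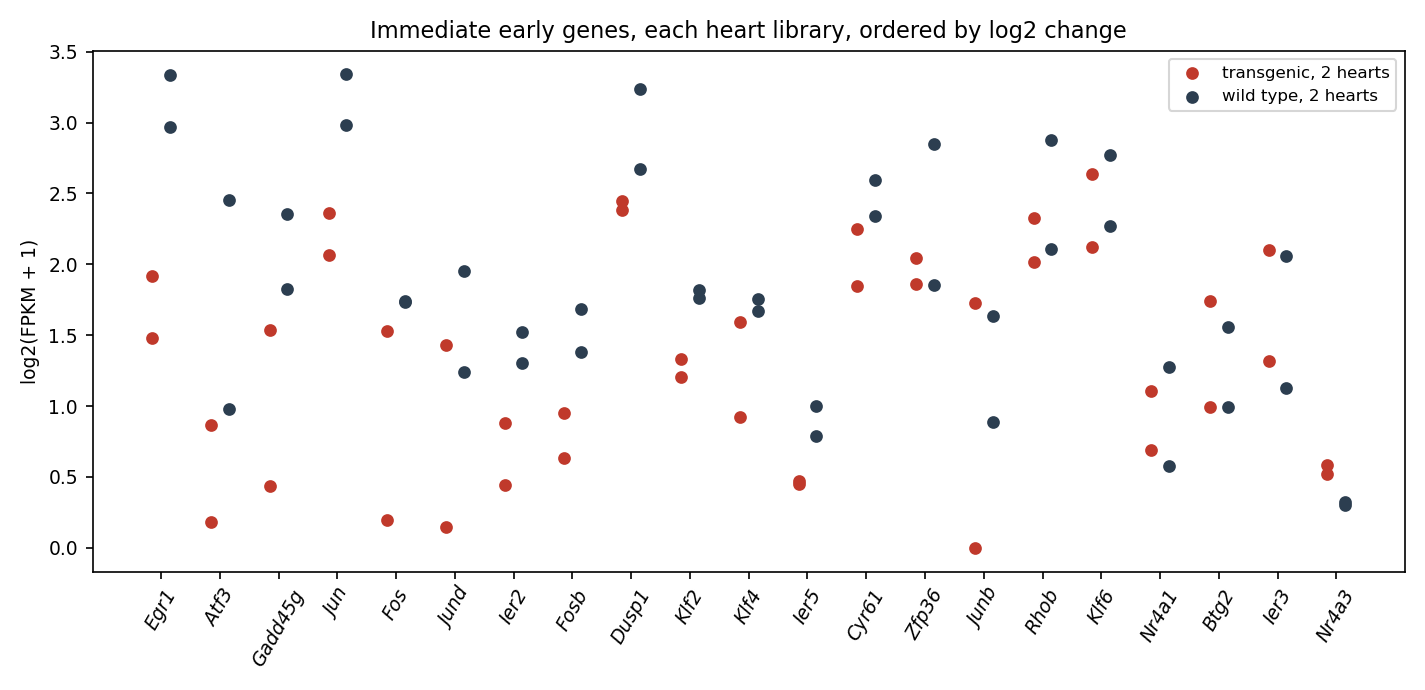
log2(FPKM + 1) of the 21 tested immediate early genes in each heart; red points are the 2 transgenic and dark points the 2 wild-type hearts, and genes run by log2 change. From Egr1 to Cyr61 the red points lie below the dark ones except for Jund, and towards the right the groups overlap.

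No gene of the clock or of the integrated stress response was called. Of 16 tested clock genes both transgenic hearts were below both wild-type hearts for 8 (50%, against 16.8% of all genes). The transgenic hearts were above for 2 (12.5%, against 10.9%). After scaling 6 lay below (37.5%, against 18%). The list's median was 0.12 under that of all genes on the log2 scale, with 7 members over it and 9 under it. Dbp, a clock output factor with a strong daily rhythm, had 12.6 and 6.76 FPKM in the transgenic hearts, against 17.5 and 21.9 FPKM in the wild-type hearts. Nr1d1, the repressor Rev-erb alpha, had 7.64 and 6.78 FPKM in the transgenic hearts and 9.22 and 9.86 FPKM in the wild-type hearts. Tef, of the same family as Dbp, lay on the other side with 15.4 and 12.1 FPKM in the transgenic hearts and 8.14 and 11.0 FPKM in the wild-type hearts. The integrated stress response slows translation when uncharged tRNA or misfolded protein accumulates. Of its 11 tested members 3 lay below (27.3%, against 16.8% of all genes) and 0 above. The scaled count was 3 of 12 below (25%, against 18%). Relative to all genes the median log2 change of this list was -0.47, with 2 members over the all-gene median and 9 under it. Atf4, the main transcription factor of this response, had 3.11 and 2.56 FPKM in the transgenic hearts, against 5.51 and 3.83 FPKM in the wild-type hearts. Its amino acid synthesis targets Asns and Psat1 were too low to test and were listed at 0 in both transgenic hearts, while the wild-type hearts had 2.06 and 0.154 FPKM of Asns and 0.355 and 0.202 FPKM of Psat1.

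The host's own machinery for charging tRNA and ending translation, on which such a system acts, had no called gene. Most aminoacyl-tRNA synthetases overlapped between groups. Of 30 tested, 8 lay above (26.7%, against 10.9% of all genes) and 1 below (3.33%, against 16.8%). After scaling 8 of 29 lay above (27.6%, against 16.6%) and 1 below (3.45%, against 18%). Yars2, the mitochondrial tyrosyl-tRNA synthetase, had 2.77 and 2.23 FPKM in the transgenic hearts, against 0.407 and 1.17 FPKM in the wild-type hearts, a change of 1 ± 0.48 (SE, n = 2 each; limma, adjusted p = 1). Rars2, the mitochondrial arginyl-tRNA synthetase, had 5.09 and 5.38 FPKM in the transgenic hearts and 2.89 and 2.00 FPKM in the wild-type hearts. Aars, the alanyl-tRNA synthetase, had 2.59 and 3.32 FPKM in the transgenic hearts and 1.64 and 1.80 FPKM in the wild-type hearts. Hars2, the mitochondrial histidyl-tRNA synthetase, was the member below, with 0.910 and 0.0894 FPKM in the transgenic hearts and 2.57 and 1.39 FPKM in the wild-type hearts. Lars2 was listed at 10300 and 11300 FPKM in the transgenic hearts and 10300 and 9850 FPKM in the wild-type hearts, 7.08% and 9.30% of the FPKM sum against 7.30% and 7.68%. That level is far above every other synthetase, so Lars2 is not read here as a synthetase transcript. It is nonetheless counted among the 30 tested and, on unrounded values before scaling, among the 8 above.

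Release and decay factors showed no common direction. Etf1, the release factor eRF1 that recognises all stop codons, had 7.94 and 8.48 FPKM in the transgenic hearts, against 6.57 and 6.30 FPKM in the wild-type hearts. Gspt1, its GTPase partner eRF3a, overlapped. Pelo, which rescues stalled ribosomes, had 0.338 and 0.398 FPKM in the transgenic hearts, against 1.59 and 2.18 FPKM in the wild-type hearts, a change of -1.07 that did not pass (limma, adjusted p = 1). Pelo passed the expression filter only through the wild-type hearts. All genes tested had shares of 10.9% above and 16.8% below. Of 12 tested termination genes 2 lay above (16.7%) and 1 below (8.33%), and of 15 tested nonsense-mediated decay genes 2 lay above (13.3%) and 2 below (13.3%). Known targets of that decay pathway, which accumulate when stop codons are read through or decay slows, had 1 of 11 above (9.09%) and 3 below (27.3%). Scaled, 2 of these targets lay below (18.2%), near the 18% of all genes, and 1 above (9.09%, against 16.6%). Before scaling the 3 targets below were Atf3, Atf4 and Tra2a. Of these, Atf3 and Atf4 are also counted below in the integrated stress response, and Atf3 also among the immediate early genes. The lists are therefore not separate observations. In tRNA processing 6 of 21 tested genes lay below (28.6%) and 2 above (9.52%). The scaled counts there were 6 below (28.6%) and 3 above (14.3%). Cytosolic ribosomal protein genes had 14 of 71 below (19.7%, near the 16.8% of all genes) and 2 above (2.82%, against 10.9%). Scaled, 16 lay below (22.5%, against 18%) and 5 above (7.04%, against 16.6%).

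Contractile and calcium handling genes of the working heart muscle gave no call, and their position depended on the scaling. Of 27 tested ventricular and sarcomere genes 0 lay below (0%, against 16.8% of all genes) and 1 above (3.7%, against 10.9%). The list summed to 13422.8 and 9016.8 FPKM in the transgenic hearts and 12258.5 and 10602.2 FPKM in the wild-type hearts. After scaling 11 of 27 lay above (40.7%, against 16.6% of all genes). Myl2, the ventricular light chain, had 2260 and 1340 FPKM in the transgenic hearts and 2090 and 1920 FPKM in the wild-type hearts. Dmd had 17.9 and 13.2 FPKM in the transgenic hearts and 14.7 and 12 FPKM in the wild-type hearts, and Utrn, its autosomal relative utrophin, had 4.45 and 3.56 FPKM in the transgenic hearts and 4.37 and 4.36 FPKM in the wild-type hearts. Both overlapped between groups. Of 23 tested calcium handling genes 2 lay above (8.7%, against 10.9% of all genes) and 1 below (4.35%, against 16.8%). After scaling 8 lay above (34.8%, against 16.6%) and 3 below (13%, against 18%).

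Among cardiac stress genes, 4 of 15 tested lay above (26.7%, against 10.9% of all genes) and 1 below (6.67%, against 16.8%). None was called. The scaled counts were 9 above (60%, against 16.6% of all genes) and 3 below (20%, against 18%), so they depend strongly on the scaling. Myh7, the beta myosin heavy chain of the fetal and loaded mouse heart, had 9.03 and 7.03 FPKM in the transgenic hearts, against 2.63 and 2.83 FPKM in the wild-type hearts. Its change was 1.27 ± 0.41 (SE, n = 2 each) and did not pass (limma, adjusted p = 1). The 6 other hearts had 5.65 to 8.93 FPKM, so the wild-type hearts were the ones apart. Ankrd1, a stretch-responsive sarcomere protein, had 225 and 166 FPKM in the transgenic hearts and 162 and 134 FPKM in the wild-type hearts. Other genes of the fetal programme did not go the same way: the natriuretic peptide Nppa overlapped at 156 and 105 FPKM in the transgenic hearts and 155 and 148 FPKM in the wild-type hearts, and Acta1, skeletal actin, lay below at 9.79 and 9.02 FPKM in the transgenic hearts and 15.4 and 13.3 FPKM in the wild-type hearts. Myot, the Z-disc protein myotilin, had 6.47 and 6.61 FPKM in the transgenic hearts and 2.71 and 2.66 FPKM in the wild-type hearts, again with the wild-type values below all 8 other hearts.

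Atrial and smooth muscle genes included single low members. Bmp10, a growth factor made by atrial muscle in the adult mouse, had 0.846 and 2.48 FPKM in the transgenic hearts, against 6.84 and 7.18 FPKM in the wild-type hearts, a change of -1.66 ± 0.44 (SE, n = 2 each; limma, adjusted p = 0.938). It had 8.01 and 8.64 FPKM in treated trans/mdx hearts, 0 and 0.499 FPKM in trans/mdx hearts without UAA, and 0 and 0.417 FPKM in mdx hearts. In all, 2 of 13 tested atrial genes lay below (15.4%, against 16.8% of all genes) and 0 above, and the list summed to 279.2 and 179.7 FPKM in the transgenic hearts and 302.1 and 240.4 FPKM in the wild-type hearts; after scaling 6 of 13 lay below (46.2%, against 18%). The part of the atrial share of the piece sequenced was not tested. Myl9, a smooth muscle light chain, had 1.37 and 2.09 FPKM in the transgenic hearts, against 5.57 and 7.88 FPKM in the wild-type hearts, a change of -1.50 (limma, adjusted p = 1).

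No marker of macrophages or fibroblasts was called. Of 15 tested macrophage genes 5 lay below (33.3%, against 16.8% of all genes) and 1 above (6.67%, against 10.9%). The scaled counts were 5 of 16 below (31.2%, against 18% of all genes) and 3 above (18.8%, against 16.6%). Tyrobp, a signalling adaptor of myeloid cells, was listed at 0 in the transgenic hearts, where the wild-type hearts had 3.31 and 3.67 FPKM, about 7.57 and 7.42 fragments (limma, adjusted p = 0.461). Aif1, the macrophage calcium-binding protein Iba1, was likewise listed at 0 in the transgenic hearts, where the wild-type hearts had 1.14 and 1.99 FPKM. Aif1 passed the expression filter only through the wild-type hearts. Defining markers of the same cells were present in both groups: Lyz2 had 7.76 and 5.20 FPKM in the transgenic hearts and 4.39 and 5.70 FPKM in the wild-type hearts, and C1qc had 2.59 and 1.93 FPKM in the transgenic hearts and 0.982 and 1.74 FPKM in the wild-type hearts. The macrophage list summed to 33.5 and 18.8 FPKM in the transgenic hearts and 33.7 and 30.3 FPKM in the wild-type hearts. Fibroblast genes had 7 of 20 below (35%, against 16.8% of all genes) and 0 above, and after scaling 9 of 20 below (45%, against 18%); Col3a1, a fibrillar collagen chain, had 6.59 and 2.88 FPKM in the transgenic hearts and 8.80 and 6.90 FPKM in the wild-type hearts. None of the 18 T, B and NK cell genes in the table reached the level tested.

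No erythrocyte gene was called. Of 10 tested erythrocyte genes 4, all globins, lay above (40%, against 10.9% of all genes) and 1 below (10%, against 16.8%). The scaled count was 3 above (30%, against 16.6% of all genes). Hbb-bt, a beta globin, had 13.5 and 10.8 FPKM in the transgenic hearts, against 4.84 and 3.77 FPKM in the wild-type hearts, a change of 1.31 ± 0.47 (SE, n = 2 each; limma, adjusted p = 1). Hba-a1, an alpha globin, had 55.2 and 31.6 FPKM in the transgenic hearts and 30.7 and 21.9 FPKM in the wild-type hearts. The globin copies are near identical, so the split between them is uncertain. The list summed to 200.2 and 142.3 FPKM in the transgenic hearts and 120.2 and 112.3 FPKM in the wild-type hearts, while the 6 other hearts had 154.1 to 302 FPKM. The part of blood left in the tissue was not tested. Complement and MHC genes had 2 of 17 tested members above (11.8%), near the 10.9% of all genes, and 1 below (5.88%, against 16.8%). B2m, the light chain of MHC class I, had 78.2 and 75.7 FPKM in the transgenic hearts, against 52.3 and 51.4 FPKM in the wild-type hearts, and here too the wild-type hearts were below all 8 others.

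**Figure D4:**
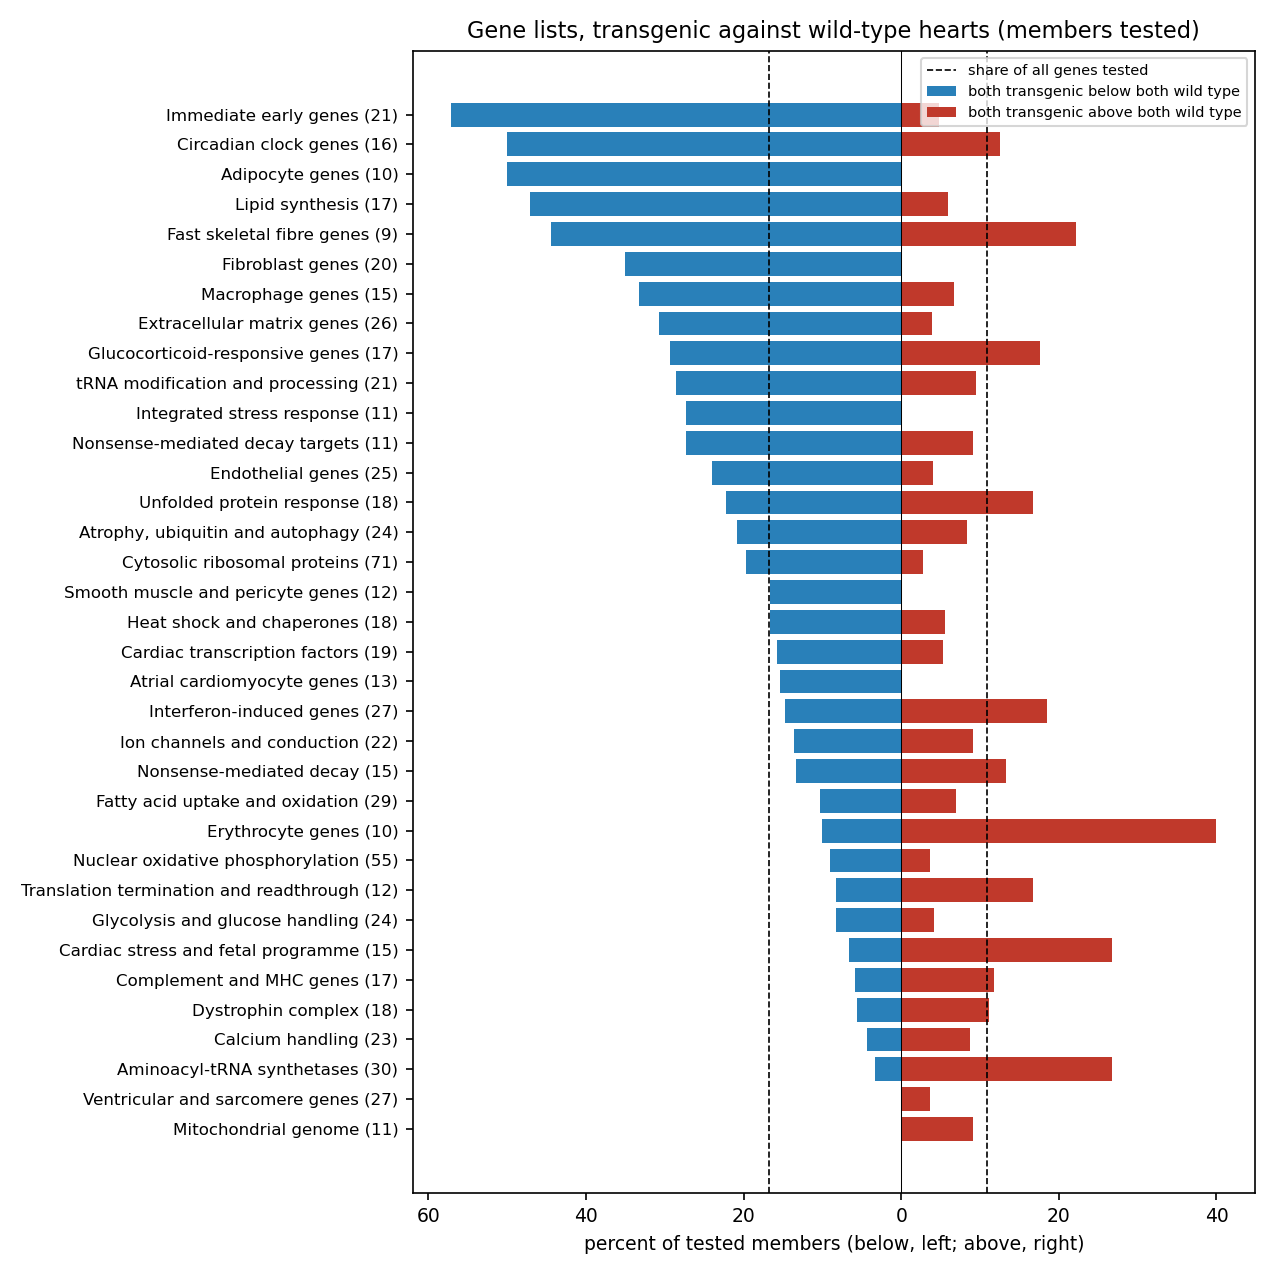
Percent of tested members of each gene list with 8 or more tested members (number in brackets) for which both transgenic hearts lay below both wild-type hearts (blue, left) or above them (red, right); dashed lines mark the shares of all 8269 genes, 16.8% and 10.9%. Immediate early, clock, adipocyte and lipid synthesis genes reach furthest left, and erythrocyte genes furthest right.

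Single genes with the smallest p outside these groups were few and none passed. On the low side, Zfp346, a double-stranded RNA binding protein, had 3.99e-05 and 0.930 FPKM in the transgenic hearts, against 7.84 and 6.53 FPKM in the wild-type hearts (change -2.55; limma, adjusted p = 0.461). Vrk2, a membrane-bound kinase, had 0.284 and 0 FPKM in the transgenic hearts, against 3.60 and 2.52 FPKM in the wild-type hearts. It passed the expression filter only through the wild-type hearts, so its test is not independent of where it is high. Lsp1, an actin-binding protein of leukocytes, had 1.09 and 1.65 FPKM in the transgenic hearts, against 8.39 and 6.20 FPKM in the wild-type hearts. Phf20, a chromatin reader, had 1.47 and 0.609 FPKM in the transgenic hearts and 6.51 and 4.48 FPKM in the wild-type hearts, with 3.24 to 5.97 FPKM in the other hearts, so here the transgenic hearts stood apart. The zinc finger gene Zfp428 and the predicted gene Gm2000 were listed at 0 in both transgenic hearts, where the wild-type hearts had 2.02 and 2.15 FPKM of Zfp428 and 2.88 and 3.18 FPKM of Gm2000.

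On the high side the smallest p belonged to Emc4, a subunit of the complex that inserts proteins into the endoplasmic reticulum membrane. It had 7.21 and 3.52 FPKM in the transgenic hearts, against 0.314 and 1.05 FPKM in the wild-type hearts, a change of 1.89 ± 0.52 (SE, n = 2 each; limma, adjusted p = 0.938). Cad, the enzyme that starts pyrimidine synthesis, had 2.68 and 1.48 FPKM in the transgenic hearts, against 0.0789 and 0.0948 FPKM in the wild-type hearts, and up to 0.389 FPKM in the other hearts. Blcap had 5.55 and 6.32 FPKM in the transgenic hearts, against 2.13 and 0.900 FPKM in the wild-type hearts. Cad and Blcap were above all 8 other hearts in both transgenic hearts. Mettl17 rested on a single library, with 13.7 and 1.66 FPKM in the transgenic hearts and 0.410 and 0.225 FPKM in the wild-type hearts. Cad and Mettl17 passed the expression filter only through the transgenic hearts, so their tests are not independent of where they are high. The entry RPL24 had 17.2 and 7.82 FPKM in the transgenic hearts and values near 0 in both wild-type hearts, but it also ranged from near 0 to 14.9 FPKM among the other hearts, and near-identical ribosomal protein copies make its level uncertain.

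**Figure D5:**
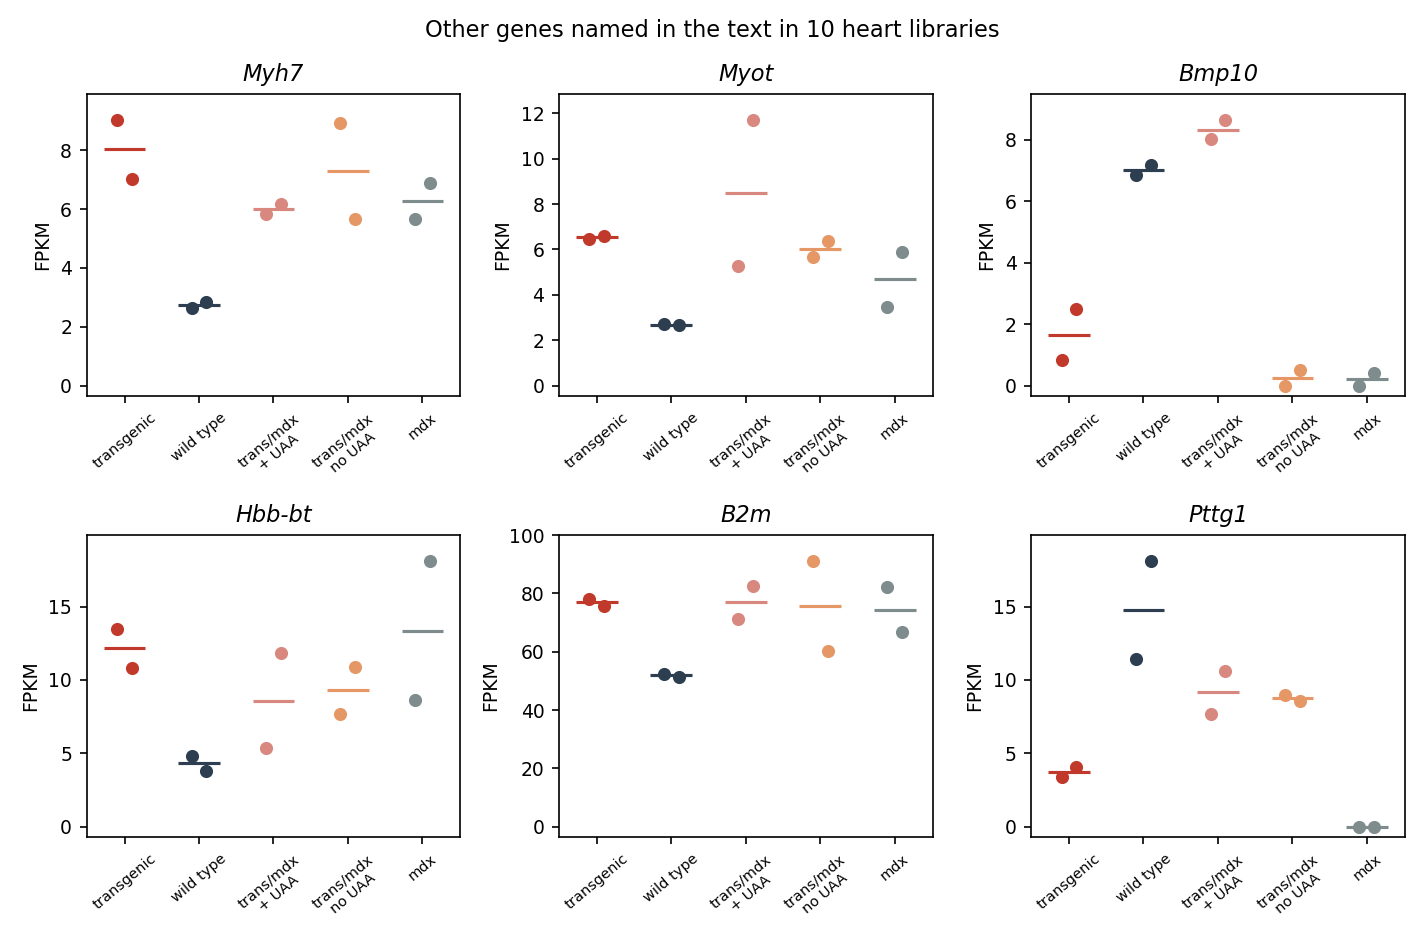
FPKM (vertical axes, linear) of Myh7, Myot, Bmp10, Hbb-bt, B2m and Pttg1 in the 10 hearts by group; points are single hearts and lines are means of 2 hearts. In the panels of Myh7, Myot, Hbb-bt and B2m the wild-type points lie below all other points, and Pttg1 is listed at 0 in mdx hearts.

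The same contrast in tibialis anterior muscle was set against that in heart in a fit of all 20 libraries. The difference of the transgene effect, heart minus muscle, passed for none of 10085 genes (0%); 467 genes (4.63%) had an unadjusted p under 0.05, 357 of them higher (3.54%) and 110 lower (1.09%), and the lowest adjusted p of limma was 0.183. The median difference of all genes tested was 0.23. Wild-type muscle replicate 2 had 8530 genes at 1 FPKM or more, against 6984 in replicate 1 and 6882 and 6794 in transgenic muscle. The part of this library in the balance of higher and lower genes was not tested. Scd1 had 54.4 and 38.5 FPKM in transgenic muscle, against 2.49 and 78.2 FPKM in wild-type muscle. The wild-type muscles differ by more from each other than from the transgenic ones, and the difference of effects was -4.50 ± 1.20 (SE; limma, adjusted p = 0.609). Without wild-type muscle replicate 2 the difference was -6.75, with the remaining wild-type muscle assumed to vary like the other groups. Over 15 alternatives the Scd1 difference ranged from -6.75 to -2.25 and passed in 1 of them. The wild-type muscle values lie on either side of the transgenic ones, so the direction in muscle depends on which is kept. Cfd shows the same spread, with 49.5 and 31.2 FPKM in transgenic muscle and 3.08 and 61.5 FPKM in wild-type muscle. Car3 was close in all 4 muscles, with 305 and 285 FPKM in transgenic muscle and 294 and 206 FPKM in wild-type muscle, and its difference of effects was -2.62 ± 0.65 (SE; limma, adjusted p = 0.562). Over 15 alternatives it ranged from -4.65 to -2.27 and did not pass in any.

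The second pair of heart groups that differ in the system is trans/mdx without UAA against mdx, which differ in strain too. The difference of the effect, hearts without minus with the mdx mutation, passed for 1 of 8269 genes (0.0121%), and 304 (3.68%) had an unadjusted p under 0.05, 232 of them higher (2.81%) and 72 lower (0.871%). The median difference of all genes tested was 0.18. Size factors were 1.053 and 0.743 in trans/mdx hearts without UAA and 0.9 and 1.456 in mdx hearts. Their part in the balance of higher and lower genes was not tested. The gene that passed was Pttg1, securin, which until anaphase blocks the enzyme that separates sister chromatids. It had 3.36 and 4.05 FPKM in transgenic hearts, against 11.4 and 18.1 FPKM in wild-type hearts. In trans/mdx hearts without UAA it had 8.95 and 8.54 FPKM, but it was listed at 0 in both mdx hearts. Between transgenic and wild-type hearts alone the change was -1.71 ± 0.41 (SE, n = 2 each) and did not pass (limma, adjusted p = 0.908). Pttg1 had 2.11 and 2.06 FPKM in transgenic muscle, against 15.3 and 14.2 FPKM in wild-type muscle. Its heart minus muscle difference was 0.64 ± 0.78 (SE, limma adjusted p = 0.987). For Scd1 the difference between hearts without and with the mdx mutation was -2.77 ± 0.58 (SE, limma adjusted p = 0.637). The Scd1 change was -3.01 between transgenic and wild-type hearts and -0.24 for untreated trans/mdx against mdx hearts.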

How the data were processed

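Heart RNA of 2 transgenic and 2 wild-type mice was analysed, with 16 further libraries of the series for the spread and for other contrasts. Per the labels' protocols, total RNA was depleted of ribosomal RNA and made into directional libraries. The authors deposited FPKM for 22564 genes in a single table. The build mm10 and the tools HISAT2 2.0.4, cutadapt 1.9.3, Cuffdiff and Cufflinks are named, with no roles, in the submitters' processing notes. Annotation and filters are not stated in the sources used here. Cufflinks-style FPKM can hold exact zeros and near-zero values that are failed estimates, so a gene at 0 throughout a group is called listed at 0, with no fold (the tested difference for Pttg1 is the exception). Of the gene IDs 21839 were found in GENCODE, which gives the coordinates (1-based, whole gene). 1 emptied line was not analysed.

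No counts were used. Depth was read from steps between low FPKM of genes with transcripts of at least 3000 bases, of which 77.0 to 80.5% lay within 4% of a whole step in these 4 libraries. FPKM were transformed as log2(FPKM + 1); a gene entered a fit if 2 or more of its libraries reached 1 FPKM. Fits were made in R 4.3.3 with limma 3.58.1, an intensity trend and one coefficient for each group, and tests were two-sided with Benjamini-Hochberg adjustment at 0.05. The heart fit used 10 libraries with 5 residual degrees of freedom, so p-values rest on a spread shared by 5 groups. The fit was tested on simulated data. Replicates are separate mice; no libraries were identical, and they correlated across genes at 0.928 (transgenic) and 0.940 (wild type). The named genes were those called, the 12 with the smallest p per direction, up to 4 per list, genes at 0 in one group and 3 FPKM or more in the other, 4 per direction for each difference of effects, and fixed ones such as Dmd; members of the lists named beyond this (such as Rars2, Aars, Etf1, Ankrd1, Lyz2, Nr1d1 and Tef) were chosen after their values were seen. The 39 gene lists have no test: counts and medians stand beside those of all genes. Members and lists were chosen with earlier results of these data known. Promoter motifs searched on both strands were the CCAAT box, the cAMP response element, its core and the C/EBP site; the last was in 0 of 6 adipocyte promoters and 9.56% of all. The text gives only part of the genes that the rule names; the others are not reported here.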

Additional observations from a re-analysis of the deposited data

Results flagged for a closer look

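Pttg1 was flagged because the effect of carrying the system differed between hearts without and with the mdx mutation by a test of the difference itself. The difference of the log2 changes was -5 ± 0.58 (SE; limma, adjusted p = 0.00241). The change between transgenic and wild-type hearts was -1.71. Pttg1 was listed at 0 in both mdx hearts, which carry another strain label, so strain and genotype cannot be told apart there and the fitted difference depends on the pseudocount. Over 14 alternatives the difference ranged from -8.40 to -4.69, and it passed in 13.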

How the results depend on the processing

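With 2 mice per group, 1 gene called and a median SE of 0.46, the data limit all but large changes. The count of called genes, 1 lower and 0 higher, was 0 with a pseudocount of 0.1, with no expression filter, with a mean of at least 5 FPKM, with all 20 libraries, and 0 to 0 when each of the 4 hearts was left out, where the lone heart of a group is assumed to vary like the others. Scd1 is under the level tested with the mean of 5 FPKM. In a fit of the 4 hearts alone the lower count was 0 and the higher count 1, and that gene was RPL24 (adjusted p = 0.0397). Scd1 kept its direction in all 12 alternatives that tested it, passed in 4 (quantile and median-of-ratios scaling, the replicate block, and without trans/mdx without UAA replicate 1) and had adjusted p of 0.0254 to 1. The replicate numbers did not pair the samples (correlation of deviations 0.003), and with the replicate block 1 gene was called, as without it. For the heart minus muscle difference 0 genes were called, against 9 (5 higher, 4 lower) with no filter and 0 to 2 when a library was left out. For the difference between hearts without and with the mdx mutation 1 gene was called, 0 with no filter (Pttg1 adjusted p = 0.0503), and 1 to 2 with a library left out, 0 to 1 of them higher. Causes were not tested. The counts after median-of-ratios scaling were chosen after seeing the data.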
